A study of Mus musculus with 18 samples.

Results

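The genes for the CD3 chains (Cd3g, Cd3d, Cd3e and Cd247), the constant regions of the T cell receptor (Trac, Trbc1, Trbc2 and Trdc) and the T cell surface proteins CD5 and CD28 were followed through type 1 innate lymphocytes of the mouse liver. They were taken by gene symbol and make up 10 of the 54309 genes in the lymphocyte count table. They had been picked with their levels in ILC1 in view, so every comparison with ILC1 is given for them as a description with no test, and tests are given between the NK cell populations.

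Bulk RNA-seq was done on cells of female C57BL/6J mice, 8 to 10 weeks old, that had received MC38 cells, a mouse colon adenocarcinoma line, by injection into the spleen and were analysed on day 20. No liver of a mouse without MC38 cells entered the lymphocyte libraries. Live CD45+ NKp46+ cells that lacked lineage markers were sorted from pools of 6 to 8 samples, with 3 libraries for each of 4 populations. MFL NK cells (CD49a- CD49b+) and MFL ILC1 (CD49a+ CD49b-) came from metastasis-free liver. LM CD49a- NK cells (CD49a- CD49b+) and LM CD49a+ NK cells (CD49a+ CD49b+) came from liver metastases, and the sample titles call the latter ILC1. The lineage markers of the sort included CD3, so cells with CD3 protein on the surface had been gated out of all 4 populations. Metastases were digested with enzymes and metastasis-free liver was only mashed and filtered, so site and dissociation cannot be told apart. The replicate numbers are not tied to the 3 independent sortings, and p-values measure the spread between these libraries.

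The T cell receptor is a pair of chains, alpha with beta or gamma with delta, whose genes are assembled by recombination from variable, diversity, joining and constant segments. It reaches the cell surface only with CD3, which is built from the gamma, delta and epsilon chains and the zeta chain encoded by Cd247, and which carries the signal inside the cell through tyrosine motifs. NK cells and ILC1 do not assemble a T cell receptor, but unrearranged receptor genes can be transcribed in them, and CD3 zeta serves NK cell receptors such as NKp46.

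Of the 10 genes, 3 (Cd3g, Trbc1 and Trbc2) were higher in each MFL ILC1 library than in each MFL NK library, 2 (Cd247 and Trdc) were lower, and 5 overlapped. Among all 13594 genes tested, 12.2% were higher and 13.1% lower in this sense, and since the genes were chosen on this contrast nothing is read from the count. Cd3g had the largest ratio of ILC1 to MFL NK cells among the 8 that passed the filter on low counts, while Cd3d and Cd3e, which lie next to it and encode its partner chains, had at most 51 counts in any ILC1 library. The 2 genes with lower levels belong to the same complex as Cd3g or to the same locus as Trac.

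**Figure D1:**
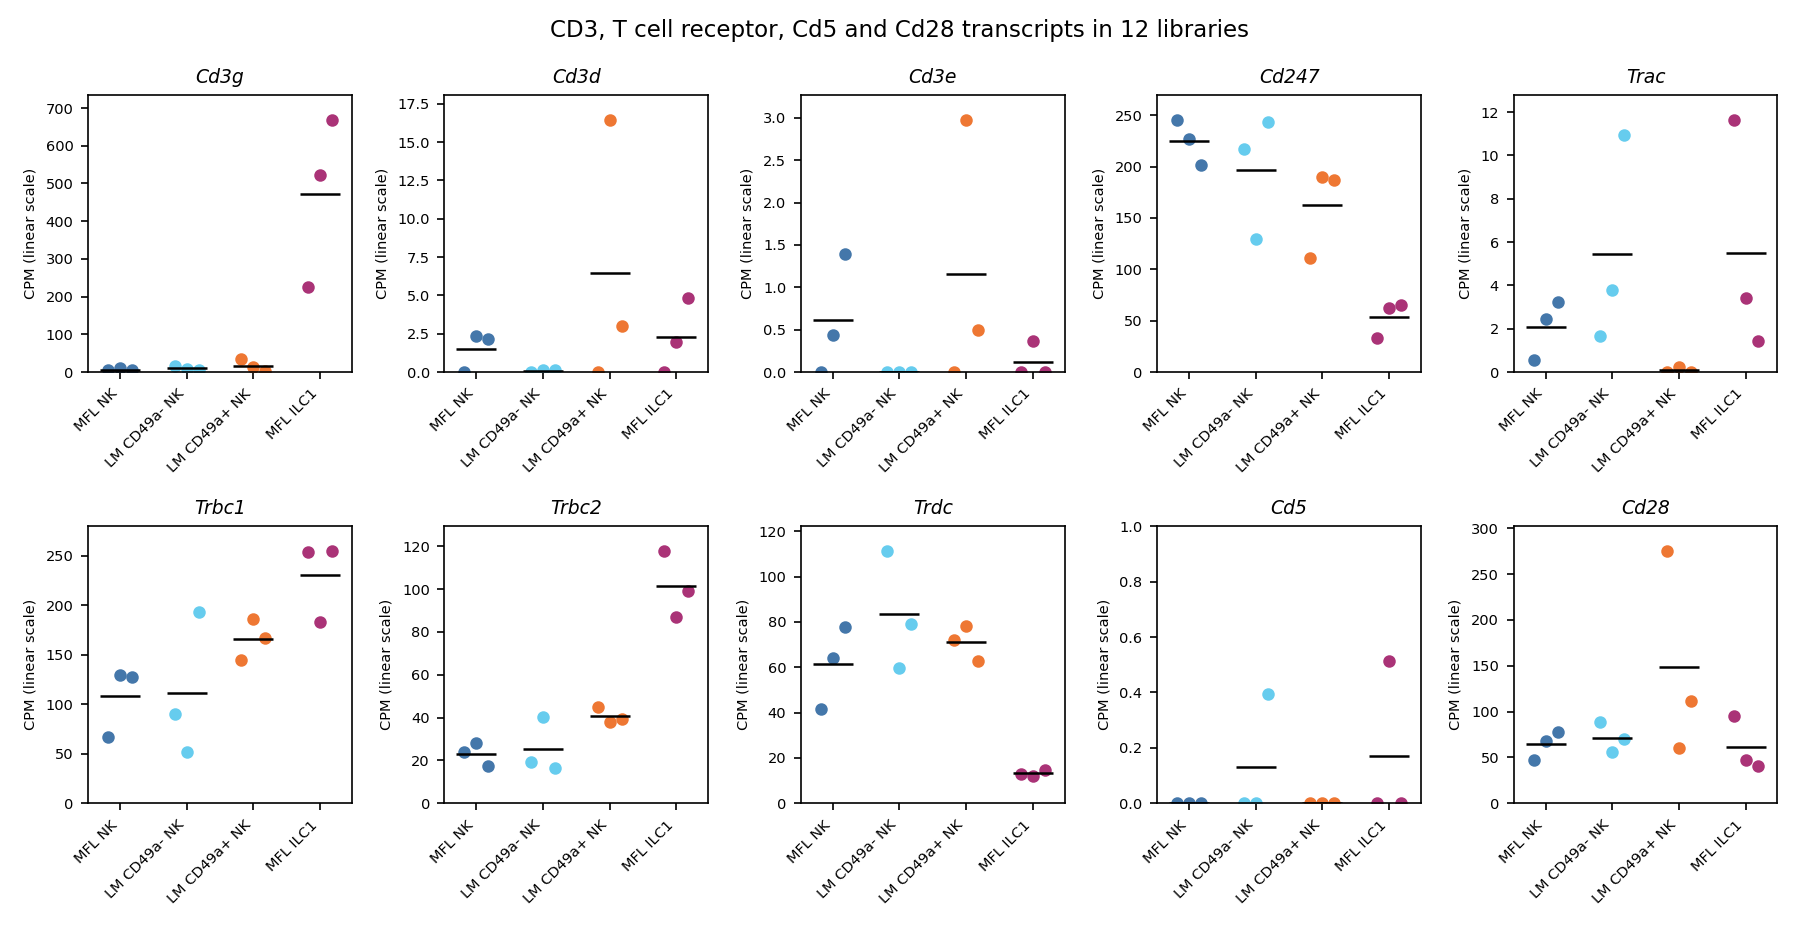
CPM (counts scaled to the TMM-corrected library total) of the 10 genes in the 12 libraries, with 1 panel a gene, a point for each library and a bar for the mean of each population of 3. MFL ILC1 libraries lie above the other 9 libraries for Cd3g and Trbc2 and below them for Cd247 and Trdc, and the scale for Cd3d, Cd3e, Trac and Cd5 stays under 20 CPM.

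The promoters of the neighbouring CD3 genes are shown because the 3 genes differed so widely in level. Cd3g (chr9:44880870-44891735, minus strand, GRCm39) and Cd3d (chr9:44893083-44899173, plus strand) are read away from each other from starts 1348 bases apart, and Cd3e (chr9:44910037-44920925, minus strand) follows. The RefSeq promoter table, on GRCm38.p6, held 5 of the 10 genes. The 250 bases before each start are given 5′ to 3′ in the direction of the gene, for Cd3g at chr9:44980432-44980681 (minus strand), for Cd3d at chr9:44981536-44981785 (plus strand) and for Cd3e at chr9:45009612-45009861 (minus strand), with capitals marking any of the motifs searched.
Cd3g: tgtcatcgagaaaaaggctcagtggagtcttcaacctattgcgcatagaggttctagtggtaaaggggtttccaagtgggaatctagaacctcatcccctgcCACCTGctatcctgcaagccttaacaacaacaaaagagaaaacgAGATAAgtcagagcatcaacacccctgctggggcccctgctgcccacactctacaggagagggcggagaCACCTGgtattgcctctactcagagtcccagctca
Cd3d: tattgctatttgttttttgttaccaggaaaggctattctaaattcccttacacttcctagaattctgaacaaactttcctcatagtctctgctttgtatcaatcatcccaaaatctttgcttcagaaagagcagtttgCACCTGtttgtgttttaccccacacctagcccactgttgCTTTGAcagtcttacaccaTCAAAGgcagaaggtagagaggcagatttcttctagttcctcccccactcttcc
Cd3e: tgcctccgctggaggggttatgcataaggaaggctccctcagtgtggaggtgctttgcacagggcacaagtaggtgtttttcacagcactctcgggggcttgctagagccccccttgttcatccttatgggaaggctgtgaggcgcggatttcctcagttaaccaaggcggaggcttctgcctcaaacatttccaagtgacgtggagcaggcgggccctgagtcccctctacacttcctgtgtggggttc

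Motifs known for factors of lymphocyte development were searched on both strands, and no match overlapped another. The E-box was searched as CACCTG. The GATA factor motif was searched as AGATAA. The TCF/LEF motif was searched as CTTTGA. The RUNX motif was searched as TGTGGT, and the TATA box by its usual letters TATAAA. The Cd3g window held the E-box at 2 places, 148 to 143 and 35 to 30 bases before the start, and the GATA motif at 104 to 99. The Cd3d window held the E-box at 112 to 107 and the TCF/LEF motif at 73 to 68 and, on the other strand, at 54 to 49. The Cd3e window held none of the 5. Of 32851 promoter windows of the same length, 17.2% held the E-box, 9.99% the GATA motif, 13.8% the TCF/LEF motif, 14.0% the RUNX motif and 12.4% the TATA box.

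Cd3g encodes the CD3 gamma chain. Its counts were 2644, 7137 and 7050 in the MFL ILC1 libraries, against 54, 128 and 65 in MFL NK, 144, 72 and 75 in LM CD49a- NK and 369, 177 and 17 in the LM CD49a+ population. On the CPM scale the means were 472 ± 226 (SD, n = 3) in ILC1, 6.21 ± 2.80 in MFL NK, 9.98 ± 5.36 in LM CD49a- NK and 17.1 ± 17.2 in the LM CD49a+ population. The lowest ILC1 library, at 224.5 CPM, lay above the highest library of any NK population, at 35.7 CPM. The mean in ILC1 was 76.0-fold that of MFL NK cells and 27.6-fold that of LM CD49a+ NK cells. In these bulk libraries, fewer cells that carry a transcript and less of it per cell cannot be told apart. ILC1 replicate 1, with the lowest Cd3g level of the 3, also had the highest share of small non-coding and mitochondrial RNA of all 12 libraries (15.2% of counts, against 3.59% to 13.3% in the others), and the fitted log2 difference from MFL NK cells was 6.24 with it and 6.58 without it.

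Cd3d and Cd3e encode the delta and epsilon chains, the latter needed in every CD3 pair. Cd3d counts were 0, 27 and 51 in ILC1, 0, 32 and 29 in MFL NK, 0, 1 and 2 in LM CD49a- NK and 0, 210 and 30 in LM CD49a+ NK cells. All 4 populations overlapped in Cd3d level, and 4 of the 12 libraries, replicate 1 of each population, had no count. Cd3e counts were 0, 5 and 0 in ILC1, 0, 6 and 19 in MFL NK, 0 in each LM CD49a- NK library and 0, 38 and 5 in LM CD49a+ NK cells, and the gene did not pass the filter on low counts. Cd3e was thus also at 0 in replicate 1 of each population, and whether these libraries share a sorting is not given in the sources used here. A count of 0 allows up to 3 counts in a library. Both genes reached their highest count in LM CD49a+ NK replicate 2, which was not the library with the most Cd3g.

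Per kilobase of exon, the Cd3g level in ILC1 was 144 CPM, against 0.877 CPM for Cd3d and 0.0299 CPM for Cd3e. In MFL NK cells the same per-length levels were 1.90, 0.578 and 0.150 CPM. The genes on either side did not share the ILC1 level of Cd3g. Ube4a, a ubiquitin ligase gene that is the next gene beyond Cd3g, was at 93.6 ± 5.70 CPM in ILC1 and 95.5 ± 21.4 CPM in MFL NK cells, and Mpzl3, beyond Cd3e, was at 6.94 ± 3.87 and 4.62 ± 3.22 CPM (both SD, n = 3). The annotation places no other gene over Cd3g or Cd3d, and the transcripts over Cd3e, Gm48719 and Gm48720, had 0 counts in every library. The table gives 1 value per gene, so which part of the Cd3g transcript the reads covered was not analysed here.

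Cd247 (chr1:165616250-165704846, plus strand) encodes CD3 zeta and went the other way. Its counts were 388, 847 and 684 in ILC1, 3002, 3084 and 2749 in MFL NK, 1949, 1166 and 3089 in LM CD49a- NK and 1151, 2431 and 1876 in LM CD49a+ NK cells. The means were 53.2 ± 17.6 CPM (SD, n = 3) in ILC1, 225 ± 21.8 in MFL NK, 196 ± 59.8 in LM CD49a- NK and 163 ± 44.5 in LM CD49a+ NK cells. ILC1 lay below each of the 9 NK libraries, with a mean 4.22-fold lower than in MFL NK cells, and the 3 NK populations were ordered MFL, LM CD49a- and LM CD49a+ with neighbours overlapping. Per length, Cd247 exceeded Cd3g in each NK population (38.2 against 1.90 CPM per kb in MFL NK cells) and lay below it in ILC1 (9.04 against 144 CPM per kb). Gm16565, a non-coding transcript within Cd247 on the same strand, had 303, 172 and 252 counts in MFL NK cells and 0, 84 and 54 in ILC1, and how the reads were shared between the 2 genes was not tested.

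**Figure D2:**
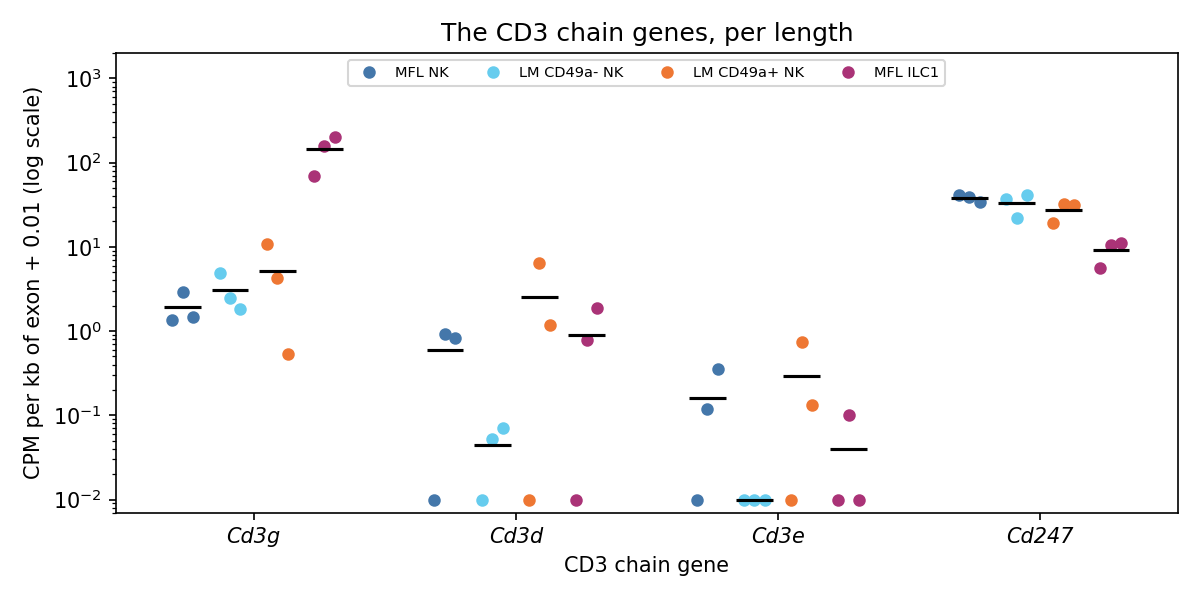
CPM per kilobase of exon plus 0.01, on a log axis, for the 4 CD3 chain genes, with a point for each library, a bar for each population mean (n = 3) and libraries without a count at 0.01. Cd3g in ILC1 averaged 144 CPM per kb, Cd3d and Cd3e stayed under 7 CPM per kb in all 12 libraries, and Cd247 was lowest in ILC1.

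Trbc1 (chr6:41515152-41516815, plus strand) and Trbc2 (chr6:41523664-41525286, plus strand) encode the constant region of the beta chain. They are near copies, and their first exons, of 375 bases each, share 374 bases (99.7%). The bases around the base that differs, in capitals, are shown because they bear on how far the counts of these genes can be told apart (exon 1, GRCm39 plus strand, chr6:41515361-41515461 for Trbc1 and chr6:41523873-41523973 for Trbc2).
Trbc1: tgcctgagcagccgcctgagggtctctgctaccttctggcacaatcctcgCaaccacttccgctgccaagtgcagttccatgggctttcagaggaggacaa
Trbc2: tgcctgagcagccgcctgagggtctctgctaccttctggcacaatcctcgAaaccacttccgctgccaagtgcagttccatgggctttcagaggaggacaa

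Of the 31-base words that the quantification used, 45.4% of those in Trbc1 also occur in Trbc2 and 48.5% of those in Trbc2 occur in Trbc1, so the split of reads between them is uncertain and their sum is the firmer value. Trbc1 counts were 2996, 2509 and 2686 in ILC1, 817, 1765 and 1743 in MFL NK, 806, 464 and 2458 in LM CD49a- NK and 1493, 2386 and 1680 in LM CD49a+ NK cells. Trbc2 counts were 1385, 1190 and 1045 in ILC1, 296, 383 and 235 in MFL NK, 172, 365 and 209 in LM CD49a- NK and 464, 487 and 397 in LM CD49a+ NK cells. Trbc2 was higher in each ILC1 library than in each NK library, whereas Trbc1 in ILC1 overlapped both metastasis populations. The sum over both genes was 372, 271 and 353.5 CPM in ILC1, 90.9 to 158 CPM in MFL NK, 91.8 to 210 CPM in LM CD49a- NK and 189.5 to 225 CPM in LM CD49a+ NK cells. The mean ratio of ILC1 to MFL NK cells was 2.13 for Trbc1 and 4.36 for Trbc2, and Trbc1 took 67.8% to 72.0% of the beta constant counts in ILC1 and 73.4% to 88.1% in MFL NK cells.

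Trac (chr14:54457978-54461663, plus strand) encodes the constant region of the alpha chain, without which no alpha-beta receptor can form. Its counts were 137, 47 and 15 in ILC1, 7, 33 and 44 in MFL NK, 15, 34 and 139 in LM CD49a- NK and 0, 3 and 0 in LM CD49a+ NK cells. ILC1 overlapped MFL NK and LM CD49a- NK cells, with 5.50 ± 5.41 CPM against 2.08 ± 1.36 and 5.46 ± 4.87 CPM (SD, n = 3), and LM CD49a+ NK cells lay below each of the other 9 libraries. Per length, ILC1 held 5.88 CPM per kb of Trac.

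Trdc (chr14:54380308-54386325, plus strand) encodes the constant region of the delta chain, and its variation was small within ILC1. Its counts were 153, 164 and 153 in ILC1, 512, 871 and 1060 in MFL NK, 997, 539 and 1005 in LM CD49a- NK and 744, 998 and 630 in LM CD49a+ NK cells. The ILC1 mean of 13.2 ± 1.25 CPM (SD, n = 3) was 4.66-fold lower than the 61.3 ± 18.2 CPM of MFL NK cells, and each ILC1 library lay below each NK library. Trdv5 and Gm43434, which overlap Trdc on the opposite strand, had at most 19 and 10 counts in any library, and the libraries were stranded.

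The variable segments were then set beside the constant regions, since a productive receptor transcript joins a variable segment to a constant one. The table listed 253 receptor segment genes, of which 30 had a count in any library. For the beta chain, the 35 variable genes together had 0, 5 and 11 counts in ILC1, where the constant genes had 4381, 3699 and 3731, and 9, 2 and 9 counts in MFL NK cells, where the constant genes had 1113, 2148 and 1978. For the alpha chain, the 113 variable genes had 44, 2 and 14 counts in ILC1, of which Trav15-1-dv6-1 gave 44 in replicate 1 and Trav14-1 gave 14 in replicate 3. The 84 joining and diversity genes had 0 counts in all 12 libraries, but at 11 to 72 bases they are shorter than a sequencing read. The 129 variable segments annotated as genes have 328 to 595 bases, and the lengths of variable segments with another annotation were not looked up. The beta constant regions were thus read with at most 11 variable-segment counts a library in ILC1.

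The gamma constant gene Trgc4 was the receptor segment with the clearest ILC1 signal outside the 10 genes. It had 1219, 1348 and 1073 counts in ILC1, 29, 39 and 21 in MFL NK, 0, 0 and 49 in LM CD49a- NK and 248, 75 and 23 in LM CD49a+ NK cells. It was called higher in ILC1 than in MFL NK cells (log2 5.48 ± 1.25 SE, adjusted p = 0.0213, edgeR), a call that was lost with DESeq2 and without MFL NK replicate 1 or 3 (largest adjusted p 0.117). The gamma variable genes summed to 23, 73 and 112 counts in ILC1, 0, 6 and 4 in MFL NK and 0 in each LM CD49a- NK library. In LM CD49a+ NK cells they summed to 0, 17 and 258 counts, with 179 from Trgv6 in replicate 3. Trgc1, whose counts were 0, 128 and 80 in ILC1 and at most 1 in MFL NK cells, did not pass the test (adjusted p = 0.582, edgeR).

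For the delta chain the variable genes had more counts, not scaled to length, than the constant gene in each ILC1 library and in 1 of the 3 MFL NK libraries. Trdv4 (chr14:54312362-54312972) had 774, 597 and 500 counts in ILC1 and 583, 303 and 292 in MFL NK cells, and the difference did not pass the test (log2 0.78 ± 0.52 SE, adjusted p = 1, edgeR). All delta variable genes together had 774, 631 and 529 counts in ILC1 against 153, 164 and 153 for Trdc. In MFL NK cells the same sums were 628, 386 and 392 against 512, 871 and 1060. Trdc has 3865 bases of exon, far more than a variable gene, and per kilobase Trdv4 exceeded Trdc in all 4 populations. The per-length means were 118 against 3.41 CPM in ILC1 and 68.6 against 15.85 CPM in MFL NK cells. They were 74.8 against 21.6 CPM in LM CD49a- and 76.3 against 18.4 CPM in LM CD49a+ NK cells. Trdv2-2, the next delta segment by level, had 0, 34 and 29 counts in ILC1 and 45, 64 and 92 in MFL NK cells (adjusted p = 1, edgeR).

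**Figure D3:**
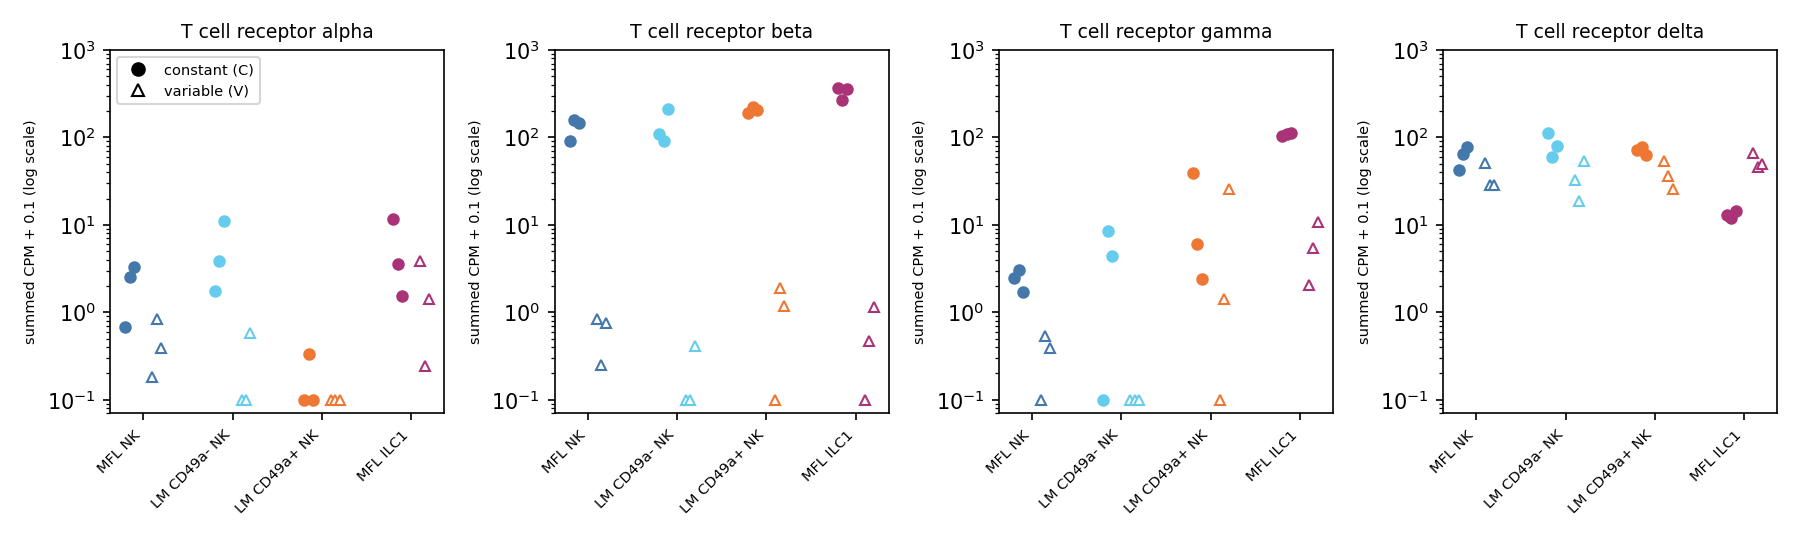
Summed CPM plus 0.1 on a log axis for the constant genes (filled circles) and the variable genes (open triangles) of each receptor chain, with a point for each of the 12 libraries and sums without a count at 0.1. Beta constant regions lay at 90.9 CPM or more in every library while beta variable genes stayed under 2 CPM, and gamma constant regions were highest in ILC1. The sums are not scaled to length, and on this scale delta variable genes exceeded Trdc in ILC1 and in MFL NK replicate 1.

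Cd5 and Cd28 encode a brake and a costimulatory receptor of T cells. Cd5 had 7 counts in ILC1 replicate 2, 5 in LM CD49a- NK replicate 3 and 0 in the other 10 libraries, and it did not pass the filter on low counts. Cd28 counts were 1126, 640 and 433 in ILC1, 583, 924 and 1054 in MFL NK, 800, 510 and 884 in LM CD49a- NK and 2838, 772 and 1117 in LM CD49a+ NK cells. The means were 61.2 ± 30.0 CPM in ILC1, 64.4 ± 15.2 in MFL NK, 71.8 ± 16.4 in LM CD49a- NK and 149 ± 112 in LM CD49a+ NK cells (SD, n = 3), and all neighbours in this order overlapped. LM CD49a+ NK replicate 1, at 275 CPM, set the higher mean of its population.

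LM CD49a+ NK cells share the CD49a of ILC1, and the genes were therefore set beside each other in these 2 populations too. Of the 8 that passed the filter, Cd3g, Trbc2 and Trac were lower in each LM CD49a+ NK library than in each ILC1 library and Cd247 and Trdc were higher, where 13.9% and 9.33% of the 13594 genes were so. The fitted log2 differences, LM CD49a+ NK over ILC1, were -4.79 for Cd3g, -1.31 for Trbc2, 1.61 for Cd247 and 2.43 for Trdc. Trbc1 (-0.47), Cd28 and Cd3d (1.51) overlapped. For Trac no fold is given, since LM CD49a+ NK cells held 3 counts in all.

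Between the NK populations, 8 of the 10 genes could be tested, though they had been chosen with results of these libraries known. The test was run with edgeR over all 13594 genes at an adjusted p under 0.1. None was called between the 2 metastasis populations, where 0.14% of all genes were called (0.0662% higher and 0.0736% lower in LM CD49a+). None was called for LM CD49a+ against MFL NK cells, where 0.647% were (0.427% higher and 0.221% lower), or for LM CD49a- against MFL NK cells, where 0.0736% were (0.0662% higher and 0.00736% lower). Without overlap of libraries, Trac was lower in LM CD49a+ than in LM CD49a- NK cells, where 4.1% of genes were lower and 5.72% higher. Cd247 and Trac were lower and Trbc1 and Trbc2 higher for LM CD49a+ against MFL NK cells, where 13% and 7.06% were. None of the 8 was free of overlap between LM CD49a- and MFL NK cells, where 12% of genes were lower and 4.27% higher. At an unadjusted p under 0.05 there were 3, 3 and 0 of the 8, beside 1579, 1324 and 914 of all 13594 genes. The median log2 difference of the 8 was 0.63, 0.72 and 0.14, beside 0.01, -0.04 and -0.09 over all genes tested.

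Cd28 and Cd3g came nearest among the genes with more than a few counts. Cd28 differed by log2 1.05 ± 0.46 SE between the 2 metastasis populations (adjusted p = 0.404, edgeR) and by 1.21 ± 0.46 between LM CD49a+ and MFL NK cells (adjusted p = 0.401). Cd3g differed by 1.46 ± 0.68 SE between LM CD49a+ and MFL NK cells (adjusted p = 0.502, edgeR) and by 0.78 ± 0.67 between the metastasis populations (adjusted p = 0.716). With no filter on low counts, in the comparison of LM CD49a+ with MFL NK cells, both were called, at an adjusted p of 0.00163 for Cd3g and 0.0556 for Cd28 (edgeR). LM CD49a+ NK replicate 1 had the highest level of both genes among the 9 NK libraries, and without it the log2 differences from MFL NK cells fell to 0.33 and 0.40.

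Trbc1 and Trbc2 were higher in each LM CD49a+ NK library than in each MFL NK library, at log2 0.62 ± 0.37 SE (adjusted p = 0.708, edgeR) and 0.82 ± 0.40 (adjusted p = 0.532) and neither passed the test. Trdc differed by 0.21 ± 0.34 (adjusted p = 0.98) and Cd247 by -0.46 ± 0.30 (adjusted p = 0.764) in the same comparison. Trac, with 0, 3 and 0 counts in LM CD49a+ NK cells, had unadjusted p-values of 0.0133 against LM CD49a- and 0.0384 against MFL NK cells (edgeR, adjusted p = 0.375 and 0.483), and DESeq2 called the former at an adjusted p of 0.022. Cd3d, with 0, 1 and 2 counts in LM CD49a- NK cells, did not pass between the metastasis populations either (edgeR, adjusted p = 0.422).

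**Figure D4:**
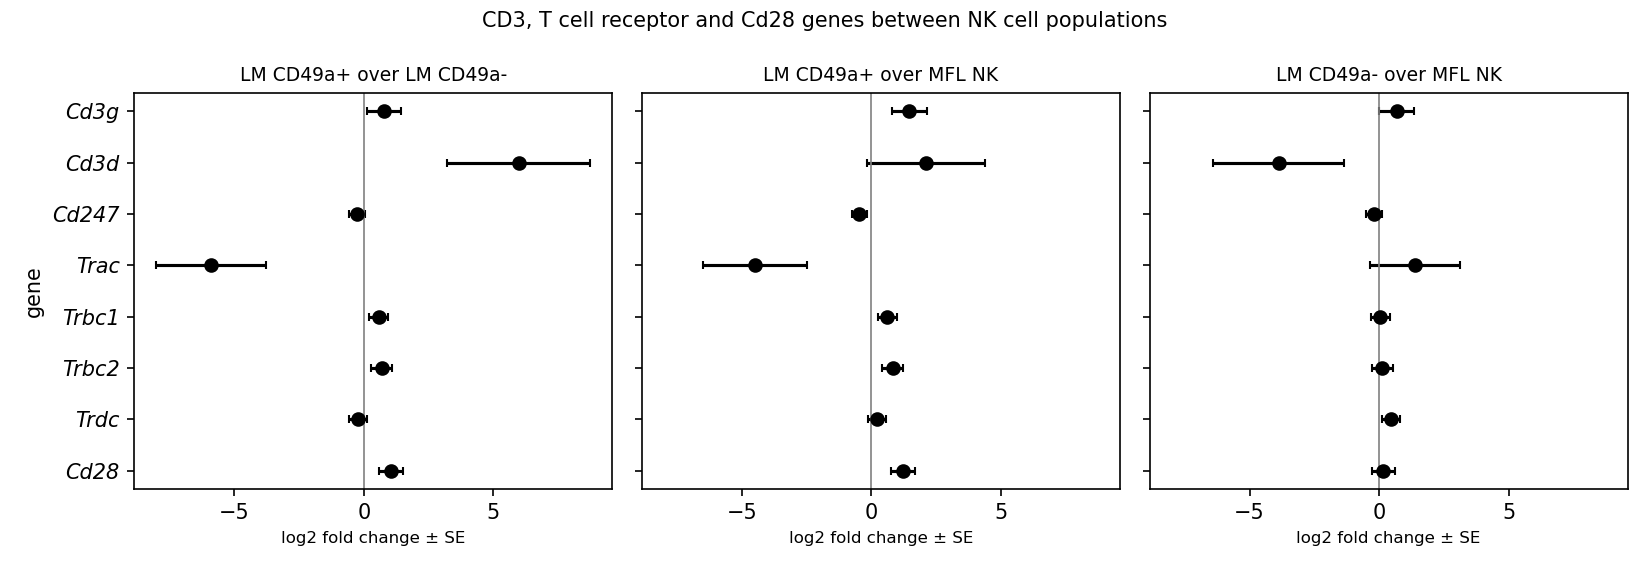
Fitted log2 fold change ± SE (edgeR, 3 libraries a population) of the 8 genes that passed the filter in the 3 comparisons between NK populations, on 1 shared axis. The bars of Trac and Cd3d are the widest, with SE from 1.74 to 2.76, the Trac estimates against LM CD49a+ and the Cd3d estimates against LM CD49a- NK cells rest on 3 counts in that population, and no gene passed an adjusted p of 0.1.

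The receptor passes its signal to a set of kinases, adaptors and phosphatases that NK cells use too. Of 36 genes of this kind that passed the filter, 1 rose and 2 fell in MFL ILC1 against MFL NK cells, where 3.06% of all genes were called (1.38% higher and 1.68% lower). Ubash3a, a phosphatase family member that dampens receptor signals, was at 157 against 47.3 CPM (log2 1.73 ± 0.33 SE, adjusted p = 0.00538, edgeR). The kinases Fyn (314 against 780 CPM, log2 -1.31 ± 0.21, adjusted p = 0.000969) and Syk (187 against 449 CPM, log2 -1.26 ± 0.26, adjusted p = 0.00962) fell. These 3 calls were kept under each of the 17 other settings tried. Plcg1, the phospholipase downstream of LAT, had 1030, 1271 and 1000 counts in ILC1 and 58, 64 and 57 in MFL NK cells and did not pass the test (log2 4.33 ± 1.49, adjusted p = 0.217, edgeR), and Lck (log2 -0.22 ± 0.29) and Lat (0.67 ± 0.64) did not either. For Plcg1 these libraries did not overlap (87.4 CPM or more in ILC1, 4.74 CPM or less in MFL NK cells). The fit shares its spread over all 4 populations, and Plcg1 had 85, 0 and 55 counts in LM CD49a- NK and 0, 1 and 128 in LM CD49a+ NK cells. How far this set the p-value was not tested. The list's median log2 difference was 0.12, beside 0.01 over all genes.

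Between the metastasis populations the same list held 1 call, Ubash3a, at 67.6 CPM in LM CD49a+ and 21.8 CPM in LM CD49a- NK cells (log2 1.64 ± 0.33 SE, adjusted p = 0.0933, edgeR). The call was lost with RLE scaling, with limma and without any of 9 single libraries (largest adjusted p 0.821). In LM CD49a+ NK cells against ILC1, where 3.58% of all genes were called (2.29% higher and 1.29% lower), Zap70, Pag1 and Ubash3a fell and Sh2d2a rose. Ubash3a was called in 12 and Sh2d2a in 9 of the 17 other settings. Zap70, the kinase that binds phosphorylated CD3 chains, was at 88.5 CPM against 218 CPM (log2 -1.30 ± 0.29 SE, adjusted p = 0.02, edgeR), and lost its call without LM CD49a+ NK replicate 3 (adjusted p = 0.108). The list had no call in the other 2 comparisons.

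Among adaptors with signalling motifs and NK cell receptors, none of 5 genes was called in any comparison (edgeR). In ILC1 against MFL NK cells 3.06% of all genes were called, so with 5 genes nothing is read from the count. At an unadjusted p under 0.05 there was none of the 5 in ILC1 against MFL NK cells, beside 1138 of all 13594 genes, while Ncr1 was under it, and lower, in both metastasis populations against MFL NK cells and for LM CD49a+ against ILC1 (unadjusted p from 0.00338 to 0.0241, edgeR). In ILC1 against MFL NK cells Fcer1g, the adaptor that pairs with CD3 zeta, was at 228 against 274 CPM (log2 -0.27 ± 0.25 SE), Tyrobp at 190 against 220 CPM (-0.22 ± 0.44), Hcst at 15.9 against 20.2 CPM (-0.34 ± 1.06), Ncr1, the gene of NKp46 used in the sort, at 946 against 984 CPM (-0.06 ± 0.22), and Fcgr3, the gene of CD16, at 49.9 against 60.0 CPM (-0.27 ± 0.40).

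Co-receptor and costimulation genes were called in both directions. In MFL ILC1 against MFL NK cells, 4 of 16 rose and 2 fell, beside 1.38% and 1.68% of all genes. The list's median log2 difference was 1.56, beside 0.006 over all genes, but nothing is read from it. Cd4, Cd8a and Pdcd1 had at most 5 counts in any NK library, so they passed the filter only through ILC1, where they were higher. Il7r (117 against 6.06 CPM, log2 4.27 ± 0.58 SE, adjusted p = 0.000241, edgeR), the interleukin-7 receptor, Cd226 (294 against 35.5 CPM, log2 3.05) and Cd7 (941 against 115 CPM, log2 3.04) rose. Cd2, an adhesion receptor (85.7 against 292 CPM, log2 -1.77), was among those that fell. Thy1 was the list's 1 call in LM CD49a+ against MFL NK cells, where 0.427% of all genes were called higher (281 against 72.6 CPM, log2 1.95 ± 0.35 SE, adjusted p = 0.0184, edgeR), lost without MFL NK replicate 1 or 3 (largest adjusted p 0.127). In LM CD49a+ NK cells against ILC1, 3 rose, Cd2 and Tnfrsf9 among them, and 3 fell (Cd7, Il7r and Cd226), beside 2.29% and 1.29% of all genes.

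Of 19 transcription factors of the T lineage, 2 rose and 3 fell in MFL ILC1 against MFL NK cells, beside 1.38% and 1.68% of all genes, with a median log2 difference of -0.14. Tox rose (148 against 45.7 CPM, log2 1.70 ± 0.39 SE, adjusted p = 0.0238, edgeR), although not without MFL NK replicate 1 (adjusted p = 0.154), and Tcf12, an E protein, rose (261 against 145 CPM, log2 0.84, adjusted p = 0.0738). The Tcf12 call was kept in 11 of the 17 other settings and was lost without any single MFL NK or ILC1 library (largest adjusted p 0.332, edgeR). Myb (0, 18 and 0 counts in ILC1, 598, 1328 and 1442 in MFL NK cells, adjusted p = 2.77e-05), Lef1 (21.2 against 120 CPM, log2 -2.50, adjusted p = 1.94e-05) and the chromatin organizer Satb1 (232 against 501 CPM, log2 -1.11, adjusted p = 0.0103) fell. Bcl11b, needed for T cell commitment, had 1568, 1540 and 1152 counts in ILC1 and 210, 110 and 152 in MFL NK cells without passing the test (log2 3.28 ± 1.23, adjusted p = 0.297, edgeR). For Bcl11b too these libraries did not overlap (109 CPM or more against 17.2 CPM or less). LM CD49a- NK cells, which share the spread of the fit, had 90, 0 and 60 counts of Bcl11b. Bcl11b was called in LM CD49a+ NK cells (0, 48 and 0 counts) against ILC1 (log2 -6.51 ± 1.45, adjusted p = 0.0194, edgeR), a call that DESeq2 did not make. In that comparison Myb, Hes1 and Lef1 led 5 factors that rose, and Bcl11b and Tox fell, beside 2.29% and 1.29% of all genes. Hes1 was called in only 6 of the 17 other settings. None of the 4 recombination and pre-receptor genes, Rag1 and Rag2 among them, passed the filter, and together they had at most 0.44 CPM in any library.

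**Figure D5:**
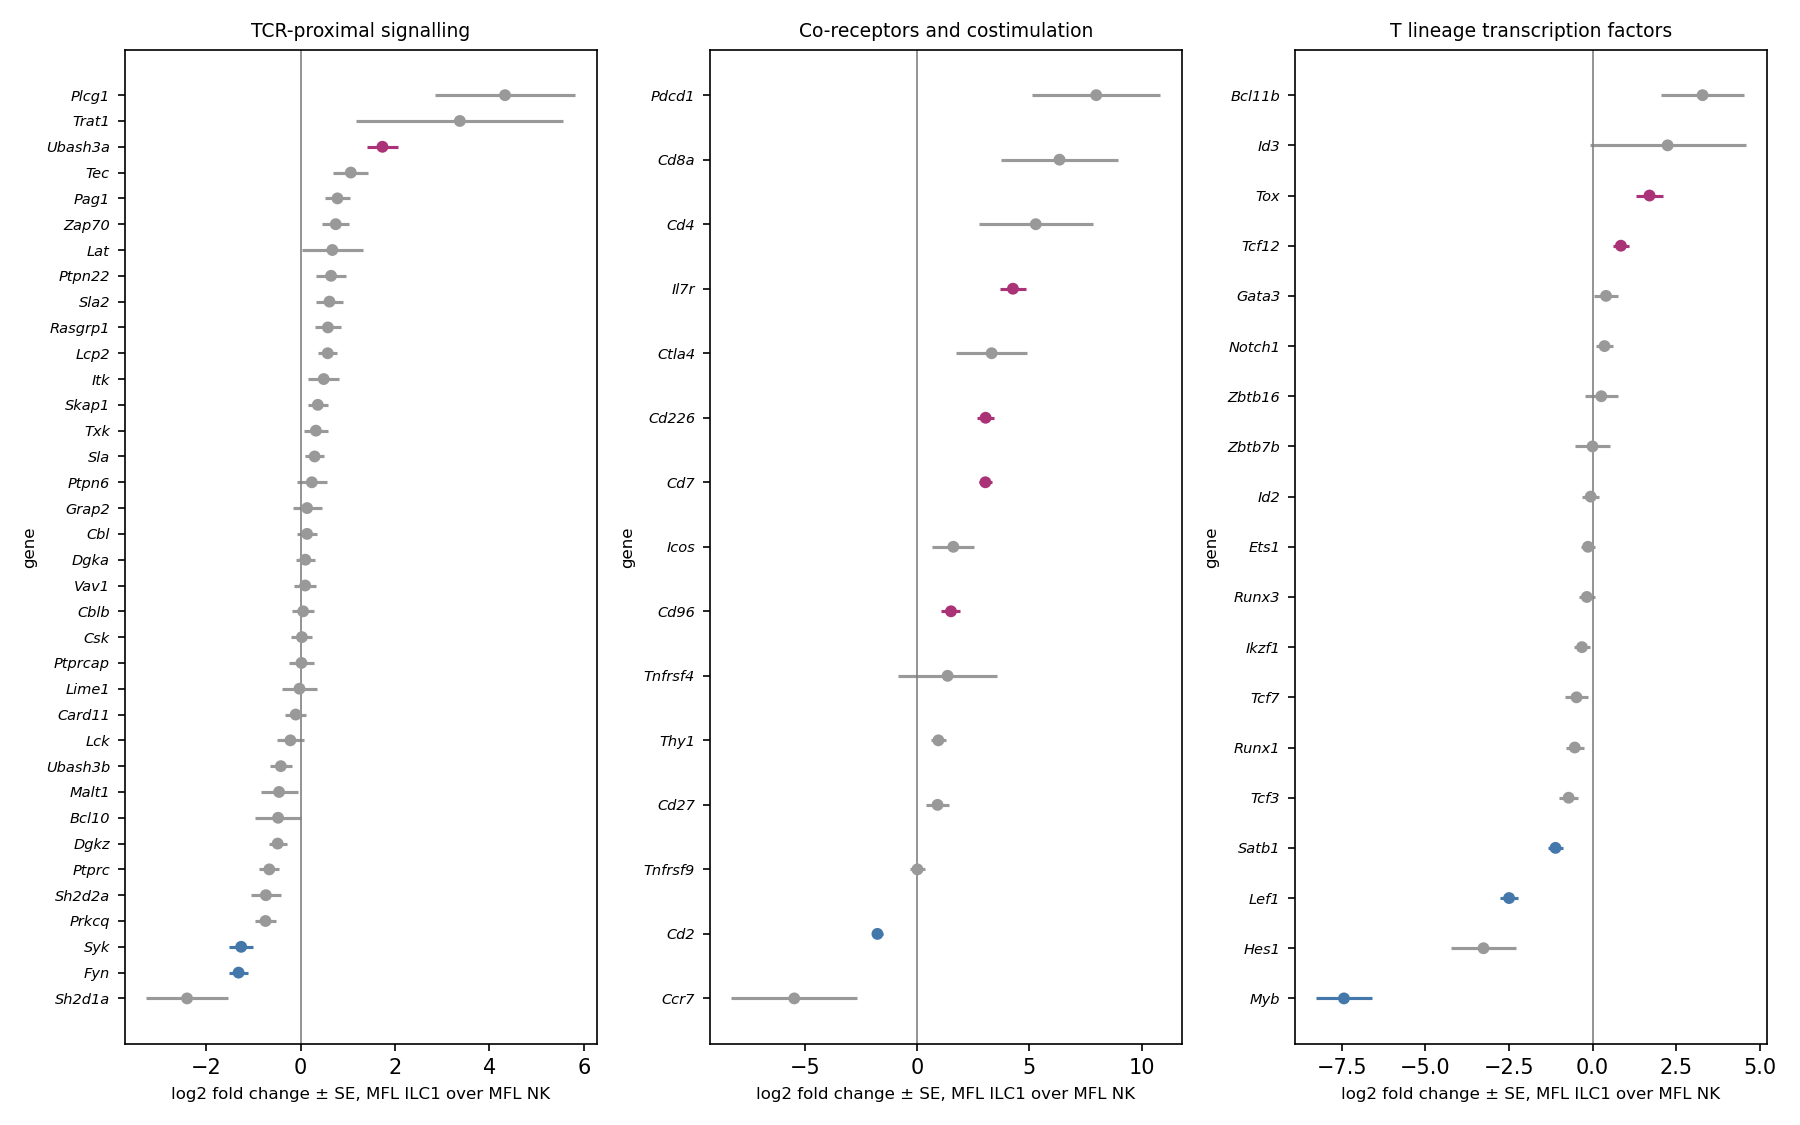
Fitted log2 fold change ± SE (edgeR, 3 libraries a population) in MFL ILC1 over MFL NK cells for receptor signalling, co-receptor and T lineage factor genes that passed the filter, each panel on its own axis. Genes called higher are purple (1, 4 and 2 in the 3 panels), genes called lower are blue (2, 1 and 3 as drawn), and genes not called at an adjusted p under 0.1 are grey.

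Markers of other cells stood as follows beside these values. The 8 alpha-beta T cell markers summed to 9.66 to 20.5 CPM in ILC1 and to 1.11 CPM or less in the 9 NK libraries, 3 passed the filter and none of them was called, Cd4 had 60, 38 and 21 counts, Cd8a 74, 45 and 53 and Trat1 86, 49 and 37 in ILC1, and Cd6, Cd40lg, Themis and Foxp3 had 0 counts there. Of the 7 gamma-delta T cell genes in the table, which include Trgc4, Sox13, Blk and Il17a had 0 counts in every library, and the list summed to 104 to 113 CPM in ILC1 against 1.62 to 2.95 CPM in MFL NK cells. Of the 4 NKT cell genes, Trav11, Trav11d and Traj18 had 0 counts in every library, and Traj18 is a joining segment, shorter than a read. Zbtb16 had 496, 570 and 349 counts in ILC1 and 343, 458 and 489 in MFL NK cells. The 7 B cell genes summed to 142 to 184 CPM in ILC1 and 30.5 to 74.9 CPM in MFL NK cells, nearly all from Ighm, whose constant region is also a recombining locus, while Cd79a and Pax5 had 0 counts in ILC1, Cd79b had 0, 49 and 27 and Ighd 0, 51 and 36. Hepatocyte genes summed to 16.2 to 98.2 CPM in MFL NK and 30.7 to 72.9 CPM in ILC1, macrophage genes to 7.11 to 113 CPM in ILC1 and 3.23 to 11.1 CPM in MFL NK cells, and tumour epithelium genes to 59.3 to 95.2 CPM in ILC1 and 0.295 to 2.53 CPM in MFL NK cells, with Cdh1 (E-cadherin) called. In ILC1, Cdh1 had 880, 639 and 486 counts and Epcam 241, 170 and 212. The keratin gene Krt8 had 0, 1 and 0 counts there, and Krt18 and Krt19 had 0. Tumour epithelium genes summed to 23.8 to 51.5 CPM in LM CD49a+ NK cells, where Cdh1 was also called against MFL NK cells (adjusted p = 0.00711, edgeR). The highest macrophage sum was that of ILC1 replicate 2, where Lyz2 had 1164 counts, against 89 and 14 in the other ILC1 libraries. The part of these cells in the Cd3g and Trbc levels was not tested.

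Marker genes were set beside the labels of the populations. The NK and ILC1 lists were chosen with earlier results of these data known and hold Itga2 and Itga1, the genes of CD49b and CD49a. They are thus no independent check of the labels. The 2 genes of the sort markers CD45 and NKp46 were not called in ILC1 against MFL NK cells. In MFL ILC1 all 8 NK genes were lower than in MFL NK cells and all 8 ILC1 genes higher at an adjusted p under 0.1 (edgeR). By list sums LM CD49a+ NK cells lay between these populations. Their ILC1 gene sum was 429 to 520 CPM, against 2230 to 2300 CPM in ILC1 and 40.6 to 53.5 CPM in MFL NK cells. Single genes did not all lie between. Eomes was at 687 CPM in LM CD49a+ NK, 668 in MFL NK and 20.3 in ILC1, and Ahr at 137, 10.5 and 106 CPM in the same order. Library totals were 8795721 to 14386834 counts, and rank correlations between libraries of a population were 0.803 to 0.98, lowest in the LM populations.

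The genes whose pattern over the 12 libraries was nearest to the mean standardized profile of the 8 genes were Gm20689 (r = 0.92), Smyd3 (0.909), Rnmt (0.888), Slc1a5 (0.886) and Nlrc3 (0.869), with Il15ra, Gm38057, Asb3 and Nxf1 also among the nearest 10. That mean described its own genes poorly, with r from -0.34 for Cd247 to 0.87 for Trbc1. Nearest to Cd3g alone, a profile chosen after its values were seen, were Vsir (r = 0.941), Hip1 (0.931), Atp8a2 (0.928), Tmem154 (0.925) and Sorl1 (0.923). Among the 10 genes, Trbc2 had r = 0.822 with Cd3g, Cd247 -0.861 and Trdc -0.831. These values rest on 12 libraries in 4 populations that share their sort and depth, and are a description.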

How the data were processed

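RNA was measured in 12 libraries of sorted lymphocytes and, in a separate table, 6 of macrophages. The authors trimmed stranded total RNA reads with Trim Galore, quantified them with Salmon 1.5.0 (k-mer 31, GENCODE M27, GRCm39) and summed them per gene with tximport 1.28.0. The deposited values are estimated counts, given as whole numbers, and for macrophages whole counts (Salmon 1.10.0 per the labels), so both tables hold counts, and values from them are set side by side with no test between them. Versioned Ensembl IDs were matched to GENCODE vM39, 53700 of 54309.

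Counts were filtered with filterByExpr (13594 genes), scaled with TMM and tested with edgeR 4.0.16 (quasi-likelihood, all 4 populations in 1 fit, Benjamini-Hochberg adjusted p under 0.1), and the SE was derived from the F statistic. CPM of the lymphocyte libraries use the TMM-scaled totals, and exon lengths are the union of annotated exons. CPM of the macrophage libraries use the plain totals over the 13759 genes of their own table, so the CPM scales differ. The count test was checked on simulated data. Alternatives were RLE scaling, no filter, DESeq2 1.42.0, limma 3.58.1 (voom with quality weights), a replicate block, and leaving out each library. The 10 genes and all lists (receptor signalling, adaptors, co-receptors, T lineage factors, recombination, and markers of NK cells, ILC1, the sort, T, NKT and B cells, macrophages, hepatocytes and tumour epithelium) were chosen with earlier results of these data known. Named list genes are the 3 called with the largest log2 change per list, direction and comparison, plus lists of at most 5, and Plcg1, Lck, Lat, Bcl11b and the counted markers were named after their values were seen. Some genes that the rules name are not reported here. Named receptor segments are the 3 with the highest mean CPM per chain. Total counts of 8795721 to 14386834 set the precision, and a count of 0 allows up to 3 counts, for counting error only. Figures were drawn with matplotlib 3.10.9.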

Additional observations from a re-analysis of the deposited data

Results flagged for a closer look

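The same genes were looked up in the 6 libraries of metastasis-associated macrophages (MAMs), which no comparison above uses, and reads from them were present in both subsets. The 9 listed genes (Trdc is not among the genes analysed there) summed to 9.42 CPM on average in F4/80 high MAMs and to 20.4 CPM in F4/80 low MAMs (3 libraries each), with 147 to 299 and 213 to 835 counts per library, above the 3 counts that a count of 0 allows. The subsets overlapped, with 14.1, 5.63 and 8.54 CPM in the F4/80 high and 25.9, 26.8 and 8.57 CPM in the F4/80 low libraries. Here the CD3 genes were in another order than in ILC1. Cd3e had 58, 32 and 52 counts in F4/80 high and 142, 147 and 29 in F4/80 low MAMs, Cd3g had 34, 10 and 36 and 74, 63 and 17, and Cd3d had 18, 8 and 9 and 53, 44 and 2. Cd5, with 7 counts in ILC1 at most, had 33, 15 and 24 and 141, 160 and 52 counts. Cd3g made up at most 37.1% of the counts of the 3 genes in the MAM libraries and 99.3% or more of them in the ILC1 libraries. The tables were made with different versions of the quantification tool, so these values stand side by side without a test.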

How the results depend on the processing

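Without a filter on low counts, 200 genes were called between the metastasis populations (19 in the reported fit), 371 for LM CD49a+ against MFL NK cells (88), 158 for LM CD49a- against MFL NK cells (10) and 774 for LM CD49a+ NK cells against ILC1 (486). DESeq2 called 541, 362, 156 and 1006 in that order and 666 for ILC1 against MFL NK cells (416). limma called 0, 307, 104 and 935, and 2645 for ILC1 against MFL NK cells. Of the 10 genes, DESeq2 called 1 (Trac) between the metastasis populations and the fit without a filter called 2 (Cd3g and Cd28) for LM CD49a+ against MFL NK cells, and the cause was not tested. Leaving out 1 library gave 5 (without LM CD49a+ NK replicate 1) to 267 calls (without LM CD49a- NK replicate 3) between the metastasis populations, 26 to 168 for LM CD49a+ and 1 to 110 for LM CD49a- against MFL NK cells, 268 to 562 for ILC1 against MFL NK cells and 257 to 708 for LM CD49a+ NK cells against ILC1. In ILC1 against MFL NK cells, receptor signalling genes called higher and lower numbered 13 and 9 with limma, 4 and 5 with DESeq2 and 2 and 4 without the filter (1 and 2 in the reported fit), co-receptor genes 10 and 3 with limma (4 and 2) and T lineage factors 4 and 8 with limma (2 and 3). No direction of a called value was reversed.

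The replicate numbers were not used as pairs in the reported fit. Same-number deviations from the population means correlated at -0.045 to 0.098, which cannot show whether same-number libraries share a sorting. With the replicate block, 24, 101, 15, 445 and 484 genes were called in LM CD49a+ against LM CD49a-, LM CD49a+ against MFL NK, LM CD49a- against MFL NK, ILC1 against MFL NK and LM CD49a+ against ILC1, and 0 of the 10 genes in the 3 NK comparisons. Trac, Cd3d and Cd3e had libraries at 0 counts. MFL NK replicate 1, at 0 counts for Cd3d and Cd3e, had a total of 13169511 counts, against 13043713 and 12752209 in MFL NK replicates 2 and 3. The reason for the counts of 0 was not tested.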
